A study of Arabidopsis thaliana with 156 samples.

Results

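In shoot apices of the Arabidopsis thaliana line FRI;FLC, 68 of 19324 probe sets on the array lost signal at each step of days 4, 9, 11, 14 and 21. Each of them lost at least 3 log2 units between days 4 and 21. These 68 probe sets, 0.352% of the array, are the subject here. They were chosen from the means of the 15 apex arrays of these days, with the 41 control probe sets left out, so their levels on those arrays are a description and carry no test. The limit of 300 was not reached, and 685 probe sets fell at every step by any amount. The naming table gave exactly 1 gene for 42 of the 68, and 9 of those genes have a symbol beyond their locus name. The other 26 are not in that table and are given by their probe set identifier.

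All plants were Col-0 with the FRI allele of Sf-2 introgressed, grown in days of 16 hours of light. Plants of FRI;flc-3, the flc-3 line, carry the flc-3 allele at the FLC locus, FRI;FLC;35S::miR156mimic plants carry in FRI;FLC a target mimic of miR156 driven by the 35S promoter, and FRI;FLC plants carry neither. FLC represses flowering and is activated by FRI, which all 3 lines carry. Shoot apices were collected with all leaf primordia no longer than 1 mm, on days 4, 6, 9 and 11 from flc-3, on day 6 from the mimic line, and on days 4, 6, 9, 11, 14 and 21 from FRI;FLC. Primordia of 1 mm were taken at leaf positions 1/2, 3, 5, 7, 9 and 11 of flc-3 and FRI;FLC, on days 6, 9, 11, 14, 16 and 18. Fully expanded leaves came from the same positions in 2 experiments. Leaves 1/2 were collected on day 14 and leaves 3 to 11 on days 21 to 34, so leaf position and plant age change together. Leaves 3, 5 and 7 past full expansion were collected from flc-3 on day 32 and from FRI;FLC on day 33. The same leaves at full expansion in experiment 2 were collected on days 23, 26 and 29. Apices, past-expansion leaves and the experiment 2 leaves were collected together, and the primordia came from the plants of the experiment 1 leaves. Of the 53 groups, 51 have 3 arrays, while on day 6 the FRI;FLC apices have 2 and the flc-3 apices have 1. Each replicate is a pool of many plants that mixes RNA of 3 collection times in a day. A pool held 120 apices on days 4 and 6, 60 on day 9, 30 on days 11 and 14, and 24 on day 21, so age and pool size change together in the apex series.

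The shoot apex holds the meristem, which makes all later organs of the shoot, and the youngest leaf primordia around it. As a seedling ages, its shoot passes from a juvenile to an adult vegetative phase, and in Arabidopsis this change follows the decline of the microRNA miR156, whose activity a target mimic blocks. Young apices are also the sites where plastids of new leaf cells develop into chloroplasts, under the control of light and cytokinin signals.

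The values are the deposited log2 signals, where 1 unit is a doubling of signal. Median signals of the apex arrays lay between 6.40 and 6.80, and 10% of all values lay below 2.03, so the size of a fall that ends near 2 is uncertain. The pair of FRI;FLC arrays of day 6 correlated with each other at 0.954, against 0.978 or more within every other apex group, and their medians over the 68 probe sets were 7.13 and 6.60. Among the markers fixed for the meristem, LAS and CLV3 were measured and neither is among the 68. Their summed signal was 3.37 to 3.62 at day 21 and 4.98 to 5.29 at day 4 in FRI;FLC apices, and both were under 3 log2 units from day 9 on. Summed signals of the 4 stomatal lineage genes measured were 9.27 to 9.75 at day 21 and 11.8 to 12.0 at day 4 in the same apices. STOMAGEN, with means of 9.53 and 11.88, made up nearly all of this sum. SPCH had means of 3.34 and 4.50, MUTE 1.62 and 4.47, and FMA 2.47 and 3.00. The trichome gene TRY had 7.32 to 7.69 and 9.29 to 9.53 on these days, and the 5 mesophyll markers summed to 13.8 to 14.3 at day 21 and 14.1 to 14.6 at day 4. Their part in the falls described here was not tested. In such pooled tissue, fewer cells of a type and less RNA per cell cannot be told apart.

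The fall ranged from 3.03 to 8.80 log2 units, with a median of 3.59. Over the 68 probe sets, the median signal was 7.67 on day 4, 6.73 on day 9, 5.59 on day 11, 5.10 on day 14 and 3.76 on day 21. The loss was not even over the series. The median step was −1.20 to day 9, −1.16 to day 11, −0.20 to day 14 and −1.04 to day 21. Over all probe sets the median of the differences was at most 0.02 in size at any step. The median level of all probe sets was 6.45 on day 4, 6.69 on day 9 and 6.65 on day 21. For 26 of the 68 the first step was the largest, for 19 the step to day 11, for 3 the step to day 14 and for 20 the last. Day 6 was not used by the rule, and there 39 of the 68 had a mean between those of days 4 and 9, 25 lay below day 9 and 4 lay above day 4. Over all probe sets the shares were 23.5%, 49.8% and 48.5%. The counts are in part built in, since the rule chose members with day 4 above day 9. The members with a gene name fell by a median of 3.63 and those without one by 3.49. Just inside the threshold were AT5G47330, with means of 1.60 at day 21 and 4.63 at day 4, and HYH, with 4.49 and 7.52. AT3G60290 and AT5G53710, with falls of 3.00 (below the threshold before rounding) and 2.97, lay just outside it.

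**Figure D1:**
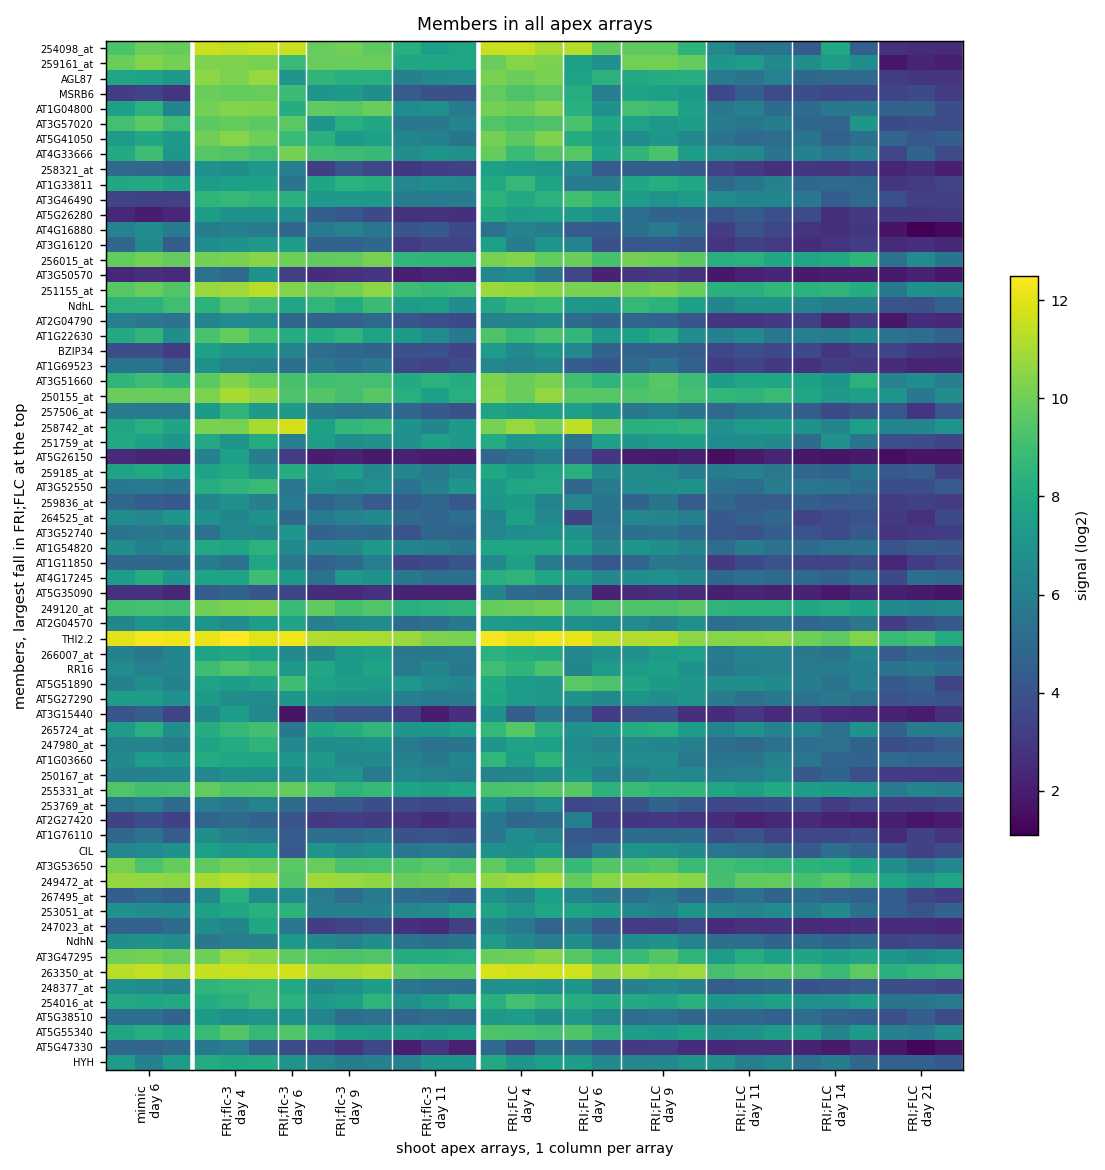
Log2 signal of the 68 probe sets (down the page, largest fall at the top) on every shoot apex array (across, by line and day, day after day within a line). In FRI;FLC the colour fades from day 4 to day 21 because the probe sets were chosen for it, and the flc-3 columns of days 4 to 11 fade in the same direction.

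The largest fall belonged to probe set 254098_at, which has no gene in the naming table. Its apex means were 11.37, 9.29, 5.80, 5.61 and 2.58 on days 4, 9, 11, 14 and 21. Its arrays of day 14 were far apart, at 4.35, 7.90 and 4.58, while those of day 21 were all low, at 2.72, 2.53 and 2.48. The next in size was 259161_at, with a fall of 8.13.

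Among the named genes the largest fall was that of AGL87 (AT1G22590), a MADS-box gene, a family that includes many regulators of flowering and organ identity. AGL87 fell by 7.17 log2 units, with 10.20, 9.91 and 10.21 on day 4, 7.99, 8.18 and 8.19 on day 9, 5.79, 5.47 and 6.16 on day 11, 4.91, 5.04 and 5.01 on day 14, and 3.06, 2.89 and 2.86 on day 21. No day overlapped with the next. MSRB6 (AT4G04840), a methionine sulfoxide reductase that repairs oxidised methionine in proteins, fell by 6.15. Its arrays read 9.76, 9.34 and 9.56 on day 4, 7.69, 7.56 and 7.32 on day 9, and 3.58, 4.51 and 3.73 on day 11. MSRB6 then stayed low, at 3.84, 3.53 and 3.60 on day 14 and 3.39, 3.68 and 3.13 on day 21, so nearly all of its loss lay before day 11. Falls above 5 log2 units were also found for AT1G04800 (5.70), AT3G57020 (5.57), AT5G41050 (5.47), AT4G33666 (5.39) and AT1G33811 (5.02), which carry only a locus name.

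Among the nuclear genes of chloroplast proteins were NdhL (AT1G70760) and NdhN (AT5G58260). They encode subunits of the NADH dehydrogenase-like complex of the thylakoid, which takes part in cyclic electron flow around photosystem I. NdhL fell by 4.19, with 7.96, 8.55 and 8.73 on day 4, 8.70, 8.45 and 7.62 on day 9, 6.34, 6.92 and 6.92 on day 11, 6.18, 5.76 and 5.94 on day 14, and 4.07, 3.94 and 4.65 on day 21. Days 4 and 9 overlapped for NdhL, and the later days did not overlap with them. NdhN fell by 3.14, with 7.41, 6.51 and 5.99 on day 4 and 3.44, 3.63 and 3.43 on day 21. CIL (AT4G25990), a homologue of CIA2, fell by 3.21 and was likewise still high on day 9, at 7.01, 6.80 and 6.55, beside 6.91, 6.76 and 7.15 on day 4.

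The signalling and defence genes fell by 3.03 to 3.95. RR16 (AT2G40670), a type-A response regulator of cytokinin signalling, read 8.99, 8.57 and 9.23 on day 4, 7.34, 7.58 and 6.96 on day 9, 5.68, 6.07 and 6.15 on day 11, 5.81, 5.80 and 5.96 on day 14, and 5.48, 5.66 and 5.26 on day 21. As for MSRB6, most of the RR16 fall of 3.47 lay before day 11. HYH (AT3G17609), a bZIP factor of light signalling and homologue of HY5, fell by 3.03, with 7.99, 7.03 and 7.53 on day 4, 6.85, 5.99 and 6.41 on day 11, and 4.57, 4.66 and 4.23 on day 21. BZIP34 (AT2G42380), another bZIP factor, fell by 3.95 and lost most of it by day 9, with 7.37, 6.56 and 7.13 on day 4, 4.75, 4.66 and 4.47 on day 9, and 3.50, 2.96 and 2.77 on day 21. THI2.2 (AT5G36910) encodes a thionin, a small cysteine-rich antimicrobial peptide, and remained at a high signal throughout. THI2.2 read 12.29, 11.95 and 12.27 on day 4 and 8.84, 9.05 and 8.12 on day 21.

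**Figure D2:**
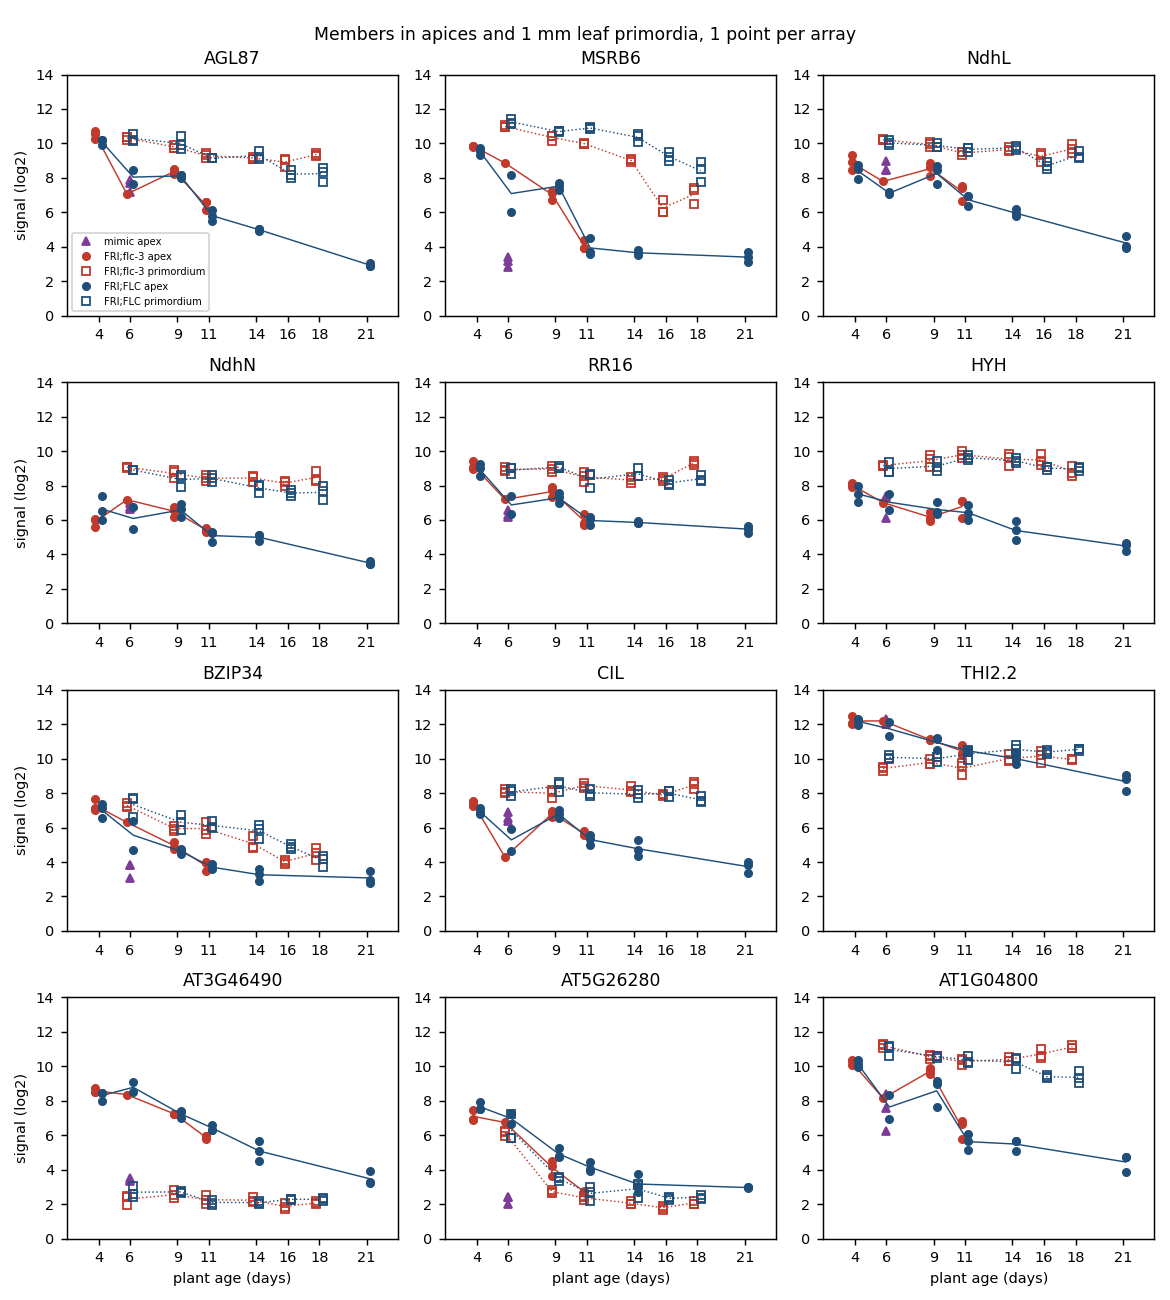
Log2 signal of 12 of the genes on every array of shoot apices (filled) and 1 mm primordia (open squares) against plant age in days, by line. Most of the genes stay higher in primordia than in FRI;FLC apices of the same age, whereas the primordia points of AT3G46490 lie near the bottom of its panel.

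The same direction was measured in flc-3 apices, which the rule did not use. At day 11 against day 4, 64 of the 68 were lower, none was higher and 4 did not pass the test at an adjusted p of 0.05. Over all probe sets, 28.8% were lower and 31.2% were higher. The differences ran from −5.77 to −0.45, all below 0, with a median of −2.24 against 0.01 over all probe sets. In FRI;FLC, where the rule used the arrays, the median of the same difference was −2.35. Without replicate 1, 2 or 3 of every group, 61 of the 64 kept their call in each case. A fall at both steps, to day 9 and to day 11, was seen in the flc-3 means of 61 of the 68, or 89.7%, against 34.2% of the 19283 probe sets the rule could choose from.

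MSRB6 had the largest difference. It read 4.39, 3.93 and 3.92 in flc-3 at day 11 and 9.87, 9.81 and 9.87 at day 4, a difference of −5.77 ± 0.35 (SE, n = 3 each, limma adjusted p = 1.5e-12). AGL87 read 6.12, 6.57 and 6.58 at day 11 and 10.57, 10.23 and 10.74 at day 4, a difference of −4.09 ± 0.24 (adjusted p = 6.17e-13). AT5G26150 differed by −4.48 ± 0.31 (adjusted p = 1.64e-11), and AT5G26280 by −4.37 ± 0.28 (adjusted p = 4.33e-12). In each of these genes the days did not overlap. RR16 fell by 3.18 ± 0.27 and BZIP34 by 3.48 ± 0.33, NdhL by 1.68 ± 0.31, CIL by 1.72 ± 0.29, THI2.2 by 1.73 ± 0.22 and HYH by 1.27 ± 0.36 (adjusted p = 0.00407 for HYH, the highest of these). The 4 that did not pass were 251759_at, 250167_at, AT3G53650 (−0.45) and NdhN. NdhN read 5.48, 5.28 and 5.54 at day 11, 6.56, 6.17 and 6.78 at day 9, and 5.62, 5.98 and 6.08 at day 4, a difference of −0.46 ± 0.32 between days 11 and 4 (adjusted p = 0.222).

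Split by step, 47 of the 68 were lower and none was higher at day 9 than at day 4 in flc-3 (19.2% lower and 22.4% higher over all probe sets), with a median of −1.24. From day 9 to day 11, 36 were lower and none was higher (3.21% and 1.97% over all), with a median of −1.12. The last count rested on single replicates: without replicate 1 it was 15, without replicate 2 it was 29 and without replicate 3 it was 10. AT1G04800 was among the 36, with 6.66, 6.83 and 5.80 at day 11 and 9.72, 9.57 and 9.88 at day 9 (−3.29 ± 0.43, adjusted p = 4.41e-05). These 3 comparisons share arrays, the long one with each of the steps.

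Levels of the 68 in flc-3 and FRI;FLC apices were set side by side on days 4, 9 and 11 without a test, since FRI;FLC arrays of these days chose the members. The median over members was 7.95 in flc-3 and 7.67 in FRI;FLC at day 4, 6.87 and 6.73 at day 9, and 5.92 and 5.59 at day 11. The median difference was 0.12, 0.13 and 0.32 on these days, and flc-3 was the higher line for 43, 44 and 52 of the 68, against 49.4%, 50.9% and 52.3% of all probe sets. On day 6, which the rule did not use, the medians were 7.12 on the single flc-3 array and 6.85 in FRI;FLC. Probe set 254098_at showed a wide gap at day 11, with 8.29, 7.50 and 7.75 in flc-3 and 6.47, 5.40 and 5.52 in FRI;FLC. MSRB6 did not, with 4.39, 3.93 and 3.92 in flc-3 and 3.58, 4.51 and 3.73 in FRI;FLC.

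**Figure D3:**
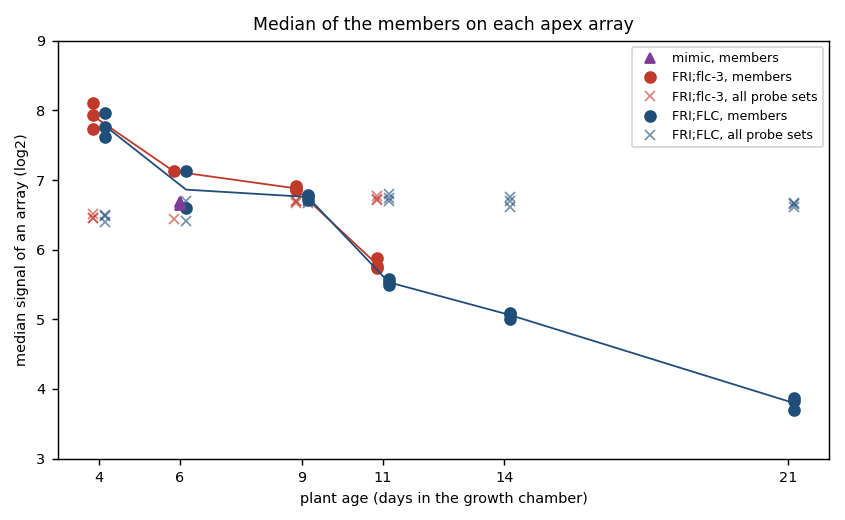
Median log2 signal of the 68 probe sets on each shoot apex array against day, by line, with the median of all probe sets on the same arrays. The member medians fall with day in both lines that have a series, and the median of all probe sets stays between 6.40 and 6.80.

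The lists that hold a member were read against the 28.8% lower and 31.2% higher over all probe sets. Among 38 nuclear photosynthesis genes on the array, which include NdhL and NdhN, 21 were lower and 6 were higher in flc-3 apices of day 11 than of day 4, with a median of −0.49 against 0.01 over all probe sets. Of 32 redox genes, the list that holds MSRB6, 13 were lower and 7 were higher (median −0.28), and of 23 MADS-box genes other than those not analysed here, AGL87 included, 5 were lower and 4 were higher (median −0.04). The list of jasmonate and salicylate genes, with THI2.2, had 3 lower and 2 higher of 10 (median −0.35). The cytokinin list was measured by 2 genes, of which 1 was lower, and the light and clock list by 2, of which 1 was lower and 1 was higher. The MADS-box, jasmonate and salicylate counts lay near or below the shares over all probe sets, and they are no result about the members. The other 26 of the 32 lists measured held no member.

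In the mimic line the 68 had no common direction. In mimic apices at day 6, 13 of the 68 were lower, 9 were higher and 46 did not pass the test against FRI;FLC of the same day. Over all probe sets 14.2% were lower and 17.7% higher, against 19.1% and 13.2% of the members. These shares lie near each other, so the counts are no result about the members as a set. The median difference was −0.08 for the members and 0.04 for all. The median level of the members was 6.69 in the mimic line and 6.85 in FRI;FLC. The comparison rests on 2 FRI;FLC arrays that stood apart from each other. It called 15 members (7 lower, 8 higher) without their replicate 1 and 29 (19 lower, 10 higher) without replicate 2. With a spread estimated from the arrays of these groups alone it called 7, of which 5 were lower and 2 were higher. Gene length also moved it: with each array's length trend removed, 7 of the 42 members with a gene were lower and 11 were higher (median 0.17), against 9 and 6 in the deposited values (median −0.08). The slopes per log10 of length were 0.02 to 0.70 on the mimic arrays and −1.38 and 0.05 on the FRI;FLC arrays of day 6.

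Some of the differences in the mimic line were large. AT3G46490 read 3.50, 3.31 and 3.37 in mimic apices and 9.07 and 8.48 in FRI;FLC apices of day 6. Its difference of −5.38 ± 0.29 (adjusted p = 8.25e-14) was called in the smallest fit as well, with an adjusted p of 0.00205. The mimic values of day 6 lay within the range of FRI;FLC apices at day 21, when AT3G46490 read 3.90, 3.26 and 3.25. AT5G26280 read 2.42, 2.01 and 2.42 in the mimic line and 7.28 and 6.64 in FRI;FLC (−4.68 ± 0.32, adjusted p = 8.6e-12). MSRB6 read 3.19, 3.40 and 2.85 in the mimic line and 8.18 and 6.00 in FRI;FLC, and its difference of −3.95 ± 0.40 (adjusted p = 2.19e-08) was −2.85 without replicate 1 of FRI;FLC and −5.04 without replicate 2. In these 3 genes every mimic array lay below both FRI;FLC arrays. BZIP34 was lower as well, with 3.82, 3.84 and 3.10 in the mimic line and 6.41 and 4.71 in FRI;FLC (−1.98 ± 0.37, adjusted p = 0.000265).

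Other members were higher in the mimic line. AT1G33811 read 7.89, 8.08 and 7.60 in mimic apices and 5.82 and 5.88 in FRI;FLC apices (2.01 ± 0.29, adjusted p = 1.18e-05). NdhL read 8.44, 8.49 and 8.99 in the mimic line and 7.16 and 7.07 in FRI;FLC (1.52 ± 0.34, adjusted p = 0.0015, and 0.0595 when only the groups compared set the spread). CIL read 6.39, 6.58 and 6.93 in the mimic line and 4.64 and 5.93 in FRI;FLC (1.35 ± 0.33, adjusted p = 0.00286). AT4G16880 was higher by 1.85 ± 0.33 (adjusted p = 0.000123, and 0.0763 with only the groups compared). AGL87, which had the largest fall of a named gene with age, read 7.85, 7.73 and 7.16 in the mimic line and 7.65 and 8.45 in FRI;FLC, and the groups overlapped. Among the redox genes as a list, 13 of 32 were lower and 2 were higher in the mimic line (median −0.41). Marker lists moved as well. The root gene PYK10 gave 9.13 to 9.29 in mimic apices and 11.8 to 11.9 in FRI;FLC apices of day 6, and the meristem genes LAS and CLV3 summed to 3.79 to 4.27 and 4.94 to 5.59, with CLV3 averaging 2.85 and 4.65. The 6 seed and embryo genes summed to 10.8 to 11.6 in mimic apices and 10.8 to 11.1 in FRI;FLC apices. AT2G44060, with means of 10.59 and 10.76, had by far the highest signal of them. PAP85 averaged 4.55 and 1.92, AtLEA4-1 4.61 and 3.22, and LEA4-5 4.45 and 3.66. AT2G46140 averaged 7.27 and 7.24 and OLEO3 3.04 and 3.81, so the 6 had no common direction. The 5 mesophyll markers summed to 14.6 to 14.7 in mimic apices and 14.0 to 14.4 in FRI;FLC apices. The part of these lists in the differences was not tested.

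In 1 mm primordia, organs held at a fixed size, most members differed with leaf position in the direction of the apices. The median differences were smaller than that of flc-3 apices between days 11 and 4, which was −2.24. A smaller difference outside the apices is in part built in, since the members were chosen for large falls in apices. The days compared also differ between these organs, so the sizes cannot be set against each other. In flc-3 primordia of leaf 9 against leaves 1/2, 50 of the 68 were lower and 4 were higher (14.5% lower and 14.5% higher over all probe sets), with a median of −0.91 against 0.02 over all. In FRI;FLC primordia 56 were lower and 3 were higher (16.9% lower and 17.6% higher over all), with a median of −1.17 against 0.03. Calls kept without each replicate numbered 47 of 54 in flc-3 and 51 of 59 in FRI;FLC. Over positions 1/2, 3, 5, 7, 9 and 11, the member medians were 8.24, 7.79, 7.89, 7.60, 7.29 and 7.53 in flc-3 primordia, and 8.28, 7.75, 7.77, 7.51, 7.28 and 7.27 in FRI;FLC primordia. A fall at every position from 1/2 to 9 was seen in the means of 26 members in flc-3, against 5.46% of all probe sets, and of 19 in FRI;FLC, against 4.75%.

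For 64 of the 68, the mean in FRI;FLC primordia of leaf 9, taken on day 16, was above that of the day 21 apex, against 53.7% of all probe sets. Since the members were chosen for a low day 21 apex, such an excess is built in by the choice. Apices and primordia come from different experiments. Probe set 254098_at read 11.30, 11.57 and 11.76 in leaf 9 primordia and 2.72, 2.53 and 2.48 in day 21 apices of FRI;FLC. AGL87 read 9.02, 8.62 and 9.11 in flc-3 leaf 9 primordia and 10.19, 10.37 and 10.38 in leaf 1/2 primordia (−1.39 ± 0.17). In FRI;FLC primordia AGL87 read 8.46, 8.19 and 8.01 for leaf 9 and 10.54, 10.22 and 10.12 for leaves 1/2 (−2.07 ± 0.17, adjusted p = 2.88e-12). The positions did not overlap in either line.

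BZIP34 and AT5G26280 had larger position differences. BZIP34 read 4.14, 3.90 and 4.03 for leaf 9 and 7.42, 7.24 and 7.18 for leaves 1/2 in flc-3 (−3.26 ± 0.25, adjusted p = 5.93e-13), and 4.87, 5.03 and 4.75 against 7.64, 7.71 and 6.64 in FRI;FLC (−2.45 ± 0.25, adjusted p = 7.62e-10). AT5G26280 read 1.66, 1.91 and 1.80 for leaf 9 and 6.22, 5.97 and 6.17 for leaves 1/2 in flc-3 (−4.33 ± 0.22, adjusted p = 3.84e-18), and differed by −3.96 ± 0.22 in FRI;FLC (adjusted p = 1.14e-16). The leaf 9 values lie at the bottom of the signal range. The chloroplast complex genes fell with position in both lines: NdhL by 0.96 ± 0.14 in flc-3 and 1.33 ± 0.14 in FRI;FLC, and NdhN by 0.92 ± 0.19 in flc-3 and 1.34 ± 0.19 in FRI;FLC. They belong to a list of which 25 of 38 genes were lower and none was higher in flc-3 primordia of leaf 9 (median −0.48), with 30 lower and 1 higher in FRI;FLC (median −0.57). Against the trend, THI2.2 was higher in flc-3 leaf 9 primordia by 0.71 ± 0.17 (adjusted p = 0.00104). AT3G52550 was higher in flc-3 by 1.40 ± 0.29 (adjusted p = 0.000233) and in FRI;FLC by 0.74 ± 0.29 (adjusted p = 0.0434), the second call being lost without replicate 2 or 3.

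Averaged over positions 1/2 to 9, 10 members were lower and 16 were higher in flc-3 than in FRI;FLC primordia (6.34% and 5.38% over all probe sets), with a median of 0.03. There were 17 calls without replicate 1, 24 without replicate 2 and 15 without replicate 3, and 12 of the 26 were called each time. MSRB6 was lower in flc-3 by 1.17 ± 0.09 (adjusted p = 1.98e-12), THI2.2 was lower by 0.49 ± 0.07, and AT5G51890 was higher by 0.84 ± 0.09 (adjusted p = 2.02e-09). The effect of position itself differed between the lines for 11 members, against 2.79% of all probe sets. It was called for 5 members without replicate 1, 7 without replicate 2 and 3 without replicate 3, and 3 of the 11 were called each time. Of the 11, 8 had a less negative or more positive leaf 9 difference in flc-3 and 3 a more negative one (1.87% and 0.921% over all). MSRB6 was the clearest. In flc-3 primordia it read 6.73, 6.02 and 6.01 for leaf 9, 9.01, 9.10 and 8.90 for leaf 7, and 10.97, 11.05 and 10.94 for leaves 1/2, a difference of −4.73 ± 0.21 between leaves 9 and 1/2 (adjusted p = 2.52e-20). In FRI;FLC it read 8.99, 9.50 and 9.23 for leaf 9 and 11.13, 11.18 and 11.43 for leaves 1/2 (−2.01 ± 0.21). The difference between these effects was −2.73 ± 0.29 (adjusted p = 1.97e-08).

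**Figure D4:**
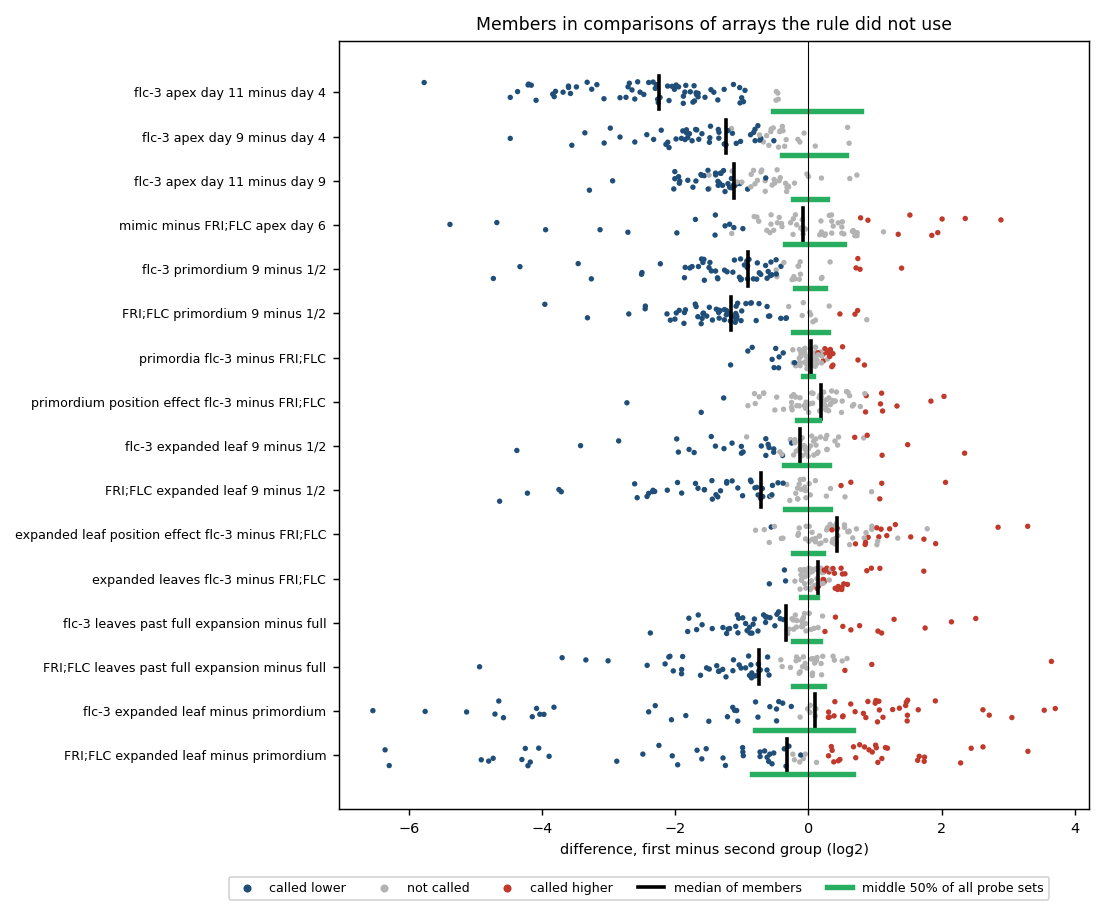
Log2 difference of each of the 68 probe sets in 16 comparisons, coloured by whether it was lower, higher or not called at an adjusted p of 0.05. The black bar is the member median and the green bar covers the middle 50% of all probe sets. Most members lie below the green bar in the flc-3 apex comparison of days 11 and 4, and they spread to both sides in the mimic line.

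In fully expanded leaves the median position difference was smaller than in primordia. It differed between the lines in experiment 1 but little in experiment 2. Leaves 1/2 were collected on day 14, so position and age at harvest change together. In flc-3 leaf 9 against leaves 1/2, 23 members were lower and 5 were higher (21.7% lower and 21.8% higher over all probe sets), with a median of −0.13. In FRI;FLC 41 were lower and 5 were higher (21.0% and 22.3% over all), with a median of −0.71. The experiments differed in this line, with 42 lower and none higher in experiment 1 (median −1.10), and 29 lower and 7 higher in experiment 2 (median −0.18). In flc-3 the counts were 13 lower and 1 higher in experiment 1 (median −0.25), and 17 lower and 9 higher in experiment 2 (median −0.15). The shares over all probe sets are for both experiments together, so the counts of 1 experiment cannot be set against the array. Leaf 9 was collected on day 30 in flc-3 and day 33 in FRI;FLC in experiment 1, and on days 32 and 33 in experiment 2, so line and age at harvest change together. The test of the difference between the lines was added after the values were seen. It called 18 members, against 6.52% of all probe sets, with 6 without replicate 1, 9 without replicate 2 and 21 without replicate 3. There were 17 members with a higher and 1 with a lower leaf 9 difference in flc-3 (3.22% and 3.29% over all), with a median of 0.42. In experiment 1 alone 20 members were higher and none was lower (median 0.79), and in experiment 2 alone none was higher and 2 were lower (median 0.10). These counts too have no share over all probe sets beside them.

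THI2.2 was the leading case. In leaf 9 it read 11.62, 10.42 and 9.45 in experiment 1 and 11.66, 11.09 and 11.04 in experiment 2 in flc-3, against 7.54, 4.98 and 6.86 and then 8.88, 7.90 and 9.19 in FRI;FLC. The lines did not overlap in either experiment. Against leaves 1/2 the THI2.2 difference was −0.93 ± 0.41 in flc-3 (adjusted p = 0.062) and −4.22 ± 0.41 in FRI;FLC (adjusted p = 2.22e-13). The difference between them was 3.29 ± 0.58 (adjusted p = 7.91e-05), with 4.22 in experiment 1 (adjusted p = 0.000632) and 2.36 in experiment 2 (adjusted p = 0.144). AT2G27420 read 8.60, 8.21 and 6.01, then 6.21, 7.72 and 6.61 in flc-3 leaf 9, against 3.87, 2.53 and 3.57, then 3.65, 3.66 and 3.42 in FRI;FLC. Its leaf 9 difference was higher in flc-3 by 2.85 ± 0.56 (adjusted p = 0.000371), or 2.16 without replicate 2 (adjusted p = 0.0573).

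Other members kept the position difference in both lines. AT3G46490 was lower in leaf 9 by 4.38 ± 0.19 in flc-3 (adjusted p = 3.37e-29) and by 4.64 ± 0.19 in FRI;FLC (adjusted p = 2.34e-30). In FRI;FLC it read 1.89, 1.68 and 2.11 in leaf 9 and 5.76, 7.17 and 6.08 in leaves 1/2 of experiment 1, so leaf 9 was at the bottom of the signal range. BZIP34 was lower by 3.42 ± 0.26 in flc-3 (adjusted p = 9.18e-18) and by 3.75 ± 0.26 in FRI;FLC (adjusted p = 1.63e-19). RR16 went the other way in FRI;FLC, where it averaged 9.33 in leaf 9 and 8.25 in leaves 1/2 (1.07 ± 0.20, adjusted p = 1.16e-05, but 0.63 with an adjusted p of 0.0984 in experiment 1 alone).

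Averaged over leaf positions 1/2 to 9 and both experiments, 26 members were higher and 3 were lower in flc-3 than in FRI;FLC leaves (16.5% and 17.5% over all probe sets), with a median of 0.14. Experiment 1 alone gave 24 higher and 1 lower (median 0.25), and experiment 2 alone gave 10 higher and 5 lower (median 0.07). The shares given are for both experiments together and do not apply to these counts. In experiment 1, leaves 3, 5, 7 and 9 were collected on days 21, 24, 26 and 30 in flc-3. In FRI;FLC the days were 23, 26, 29 and 33, so line and age at harvest change together there. In experiment 2, leaves 3, 5 and 7 were collected on the same days in both lines. AT2G27420 was higher by 1.73 ± 0.18 (adjusted p = 2.37e-12), THI2.2 by 1.07 ± 0.18 (adjusted p = 4.44e-06, and 0.71 with an adjusted p of 0.0514 in experiment 2 alone) and AT1G69523 by 0.94 ± 0.10. AT3G51660 was lower by 0.59 ± 0.08 (adjusted p = 4.26e-08). Expanded leaf 11 is a cauline leaf in flc-3, so it was described only: its member median was 8.06 in flc-3 and 6.59 in FRI;FLC in experiment 1, and 7.49 and 6.80 in experiment 2.

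Past full expansion the members were again mostly lower. In leaves 3, 5 and 7 past full expansion against the same leaves at full expansion, 34 were lower and 11 were higher in flc-3 (16.1% lower and 14.5% higher over all probe sets), with a median of −0.34. In FRI;FLC 39 were lower and 3 were higher (16.8% and 17.9% over all), with a median of −0.75. THI2.2 differed by −1.68 ± 0.34 in flc-3 (adjusted p = 5.02e-05) and by −4.94 ± 0.34 in FRI;FLC (adjusted p = 2.39e-19), where it averaged 6.07 past full expansion and 11.00 at full expansion. MSRB6 differed by −0.88 ± 0.24 in flc-3 and by −3.34 ± 0.24 in FRI;FLC (adjusted p = 3.53e-18), where it averaged 7.51 past full expansion and 10.86 at full expansion. In the oldest of these leaves the lines did not overlap for either gene. Past full expansion, leaf 3 read 10.24, 8.18 and 6.70 for THI2.2 in flc-3 and 4.39, 6.45 and 3.88 in FRI;FLC, and 10.12, 9.99 and 7.22 for MSRB6 in flc-3 and 5.12, 5.72 and 3.74 in FRI;FLC. The test of the difference between the lines was not run for this stage.

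HYH was among the members that rose past full expansion. It was higher in flc-3, with 8.85 past and 7.57 at full expansion (1.28 ± 0.20, adjusted p = 3.2e-07), but did not pass in the other line, at 0.12 ± 0.20 (adjusted p = 0.692). AT5G47330 was higher in flc-3 by 2.15 ± 0.35 (adjusted p = 8.74e-07). AT2G04570 was higher by 1.75 ± 0.30 in flc-3 and by 0.95 ± 0.30 in FRI;FLC (adjusted p = 0.0109, lost without replicate 1 or 2). RR16 was lower by 1.23 ± 0.17 in flc-3 (adjusted p = 7.72e-09), and AT1G54820 by 1.79 ± 0.16 in flc-3 and 2.03 in FRI;FLC.

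Between organs the members split. In expanded leaves against primordia of the same position in experiment 1, 29 were lower and 32 were higher in flc-3 (42.4% lower and 40.9% higher over all probe sets), with a median of 0.10. In FRI;FLC 36 were lower and 26 were higher (43.9% and 39.3% over all), with a median of −0.32. These shares of all probe sets are large, so a call here sets a member little apart. AT1G04800 averaged 4.09 in leaves and 10.63 in primordia of flc-3 (−6.54 ± 0.10, adjusted p = 8.68e-52), and 3.95 and 10.31 in FRI;FLC (−6.35 ± 0.10, adjusted p = 3.68e-51). CIL averaged 2.98 in leaves and 8.12 in primordia of flc-3 (−5.13 ± 0.10, adjusted p = 1.5e-46), and 3.17 and 8.09 in FRI;FLC (−4.91 ± 0.10). AT5G38510 was the other way round, higher in leaves by 3.70 ± 0.09 in flc-3 (adjusted p = 1.04e-41) and by 3.29 ± 0.09 in FRI;FLC (adjusted p = 3.8e-39). AT3G52740 and AT3G57020 were higher by 2.71 and 2.62 in flc-3 and by 2.44 and 2.28 in FRI;FLC, and NdhL by 1.12 ± 0.07 and 1.01 ± 0.07.

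Set beside the FRI;FLC apex of day 4, the members fell into 4 kinds by their level in FRI;FLC primordia and leaves, with a margin of 2 log2 units chosen after the values were seen and no test. The largest, of 39 members, was not lower by the margin in either organ. It had medians of 8.22 in day 4 apices, 4.06 in day 21 apices, 8.73 in primordia and 8.71 in leaves, and it holds AGL87, MSRB6, NdhL, NdhN, RR16 and HYH. The medians of this kind in primordia and leaves were both above that of the day 4 apex. Such high medians are in part built in, since the kind was sorted by these values. AGL87 and RR16 were lower in both organs than in the day 4 apex, AGL87 with 9.39 in primordia, 9.20 in leaves and 10.11 in that apex. Another kind, of 16 members with AT1G04800, AT1G33811, AT3G16120, BZIP34 and CIL among them, was low in leaves alone, with medians of 7.38 in primordia and 3.86 in leaves. THI2.2 is counted there only by lying at the margin, with 10.25 in primordia, 10.15 in leaves and 12.17 in day 4 apices. The next kind, of 10 members that include AT3G46490, AT5G26280, AT3G50570, AT5G26150, AT5G35090, AT3G15440 and AT5G55340, was low in both organs, with medians of 7.08 in day 4 apices, 3.16 in primordia and 2.09 in leaves. The remaining 3, AT5G41050, AT2G27420 and 257506_at, were low in primordia alone.

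**Figure D5:**
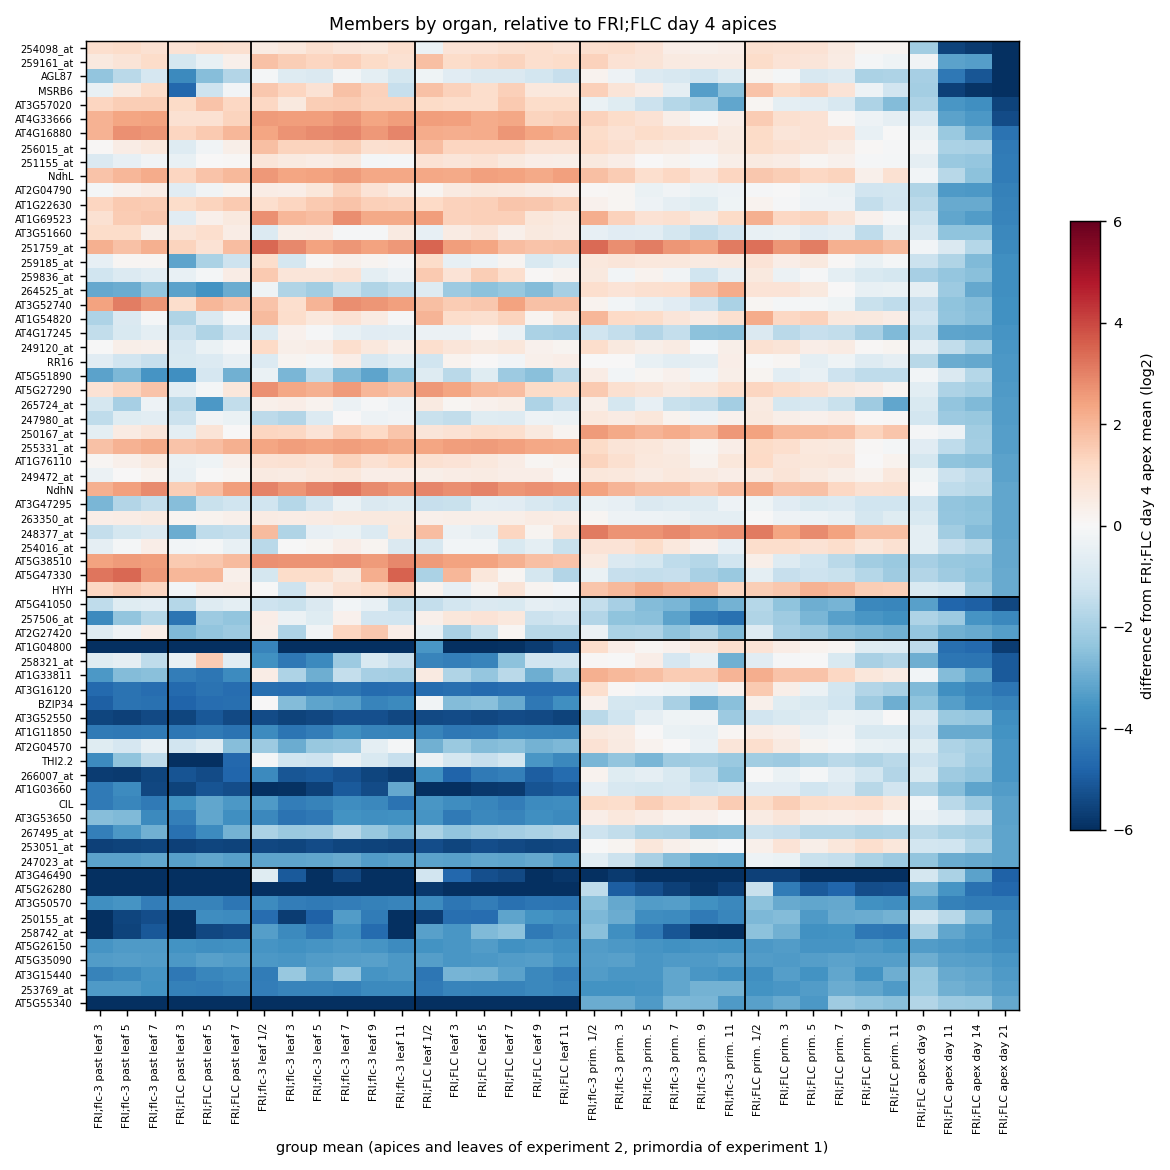
Log2 signal of the 68 probe sets relative to their mean in FRI;FLC apices of day 4, in past-expansion leaves, fully expanded leaves of experiment 2, primordia and FRI;FLC apices of days 9 to 21, with the probe sets grouped into the 4 kinds by organ. Most of the 39 members of the largest kind, at the top, are pale or red in primordia and leaves and blue in the late apex.

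The named members differed from the array in the length of their genes. The 42 members with a gene had a median gene length of 1418 bases, against 2232 over the 10891 probe sets with a length. On the apex arrays the signal also depended on gene length to a degree that changed with day. The slope per log10 of length was −1.16 to −0.97 at day 4 and 0.70 to 0.79 at day 11 in flc-3, and −1.08 to −0.61 at day 4, 0.76 to 0.95 at day 11 and −0.14 to −0.07 at day 21 in FRI;FLC. With each array's length trend removed, 39 of the 42 were lower at day 11 than at day 4 in flc-3 with a median of −2.02, against 40 and −2.30 in the deposited values. Leaf arrays were uneven too. In FRI;FLC leaf 9 the slopes were 0.76, 0.97 and −0.55 in experiment 1 and −1.11, −0.04 and −1.40 in experiment 2. The lowest correlations within these groups were 0.960 and 0.962. With the trend removed, leaf 9 against leaves 1/2 had 28 lower and 1 higher in FRI;FLC, against 24 and 1 as deposited. In flc-3 it had 14 and 1, against 11 and 2.

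The genes of the members lay on all 5 chromosomes, with 10 on chromosome 1, 5 on chromosome 2, 11 on chromosome 3, 5 on chromosome 4 and 11 on chromosome 5. In the gene order of TAIR10.1, AGL87 and AT1G22630 are separated by 3 genes, the closest pair among them. AT2G04570 and AT2G04790, and AT5G26150 and AT5G26280, are 13 genes apart, and AT3G52550 and AT3G52740 are 17 genes apart.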

How the data were processed

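RNA was amplified from 50 ng and hybridised as biotin-labelled cDNA to Affymetrix ATH1 arrays, per the labels' protocols. The deposited values are log2 signals per probe set, made by the authors. Per the submitters' processing notes, GCRMA and MAS5 were used. No version is named, and which of them gave which step is not given in the sources used here. No further normalization was applied. The probe sets were chosen by the rule above from FRI;FLC apex means. The members, gene lists and comparisons were chosen with earlier results of these data known. Every test was fitted across all 19324 probe sets with limma 3.58.1 (R 4.3.3; lmFit and eBayes with a trend), with Benjamini-Hochberg adjustment over the whole array and a threshold of 0.05. Apices, primordia and leaves were fitted separately. Each of these fits held all groups of its kind, so the apex fit took its spread also from the arrays that chose the members. Leaves were compared with primordia in a further fit, which joined the primordium arrays and the expanded leaves of experiment 1. Errors are standard errors of the fit, and the number of arrays limits the precision. Replicates are separate pools; none of the arrays was identical to another (0 pairs). Genes were named through the platform annotation and updated by locus to TAIR10.1: 10918 probe sets had 1 gene, 407 several and 7999 none listed. Named in the text are the members with 1 gene that had the 15 largest falls, up to 4 per fixed list, the 3 largest differences each way per comparison, and those at the threshold; probe sets without a gene were named where a value is singled out, after it was seen. Alternatives were quantile normalization, no trend in the prior, removal of the trend on gene length, a filter on low signal, the replicate number as a block, fits on the groups compared or on 1 experiment alone, and each replicate left out. Tables were written with Python 3.11.15, pandas 2.3.3, numpy 2.4.6 and matplotlib 3.10.9. Primordia of leaf 11 were described only. Several genes of this pathway, FLC itself and targets of miR156 among them, were not analysed here, and no sequences are shown.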

Additional observations from a re-analysis of the deposited data

Results flagged for a closer look

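The effect of leaf position differed between flc-3 and FRI;FLC in primordia for 11 members, by the interaction term of the fit. For MSRB6 the leaf 9 difference was more negative in flc-3 by −2.73, and it was called without each replicate in turn, at −3.04 to −2.41. AT1G04800 had a higher leaf 9 difference in flc-3 by 1.10 ± 0.23 (adjusted p = 0.00188). It read 10.50, 10.62 and 11.00 in leaf 9 primordia of flc-3 and 9.29, 9.38 and 9.50 in those of FRI;FLC, and the call was lost without replicate 3 (adjusted p = 0.0717). AT3G16120 differed by 1.84 ± 0.47 (adjusted p = 0.0189), where the position effect was −1.48 ± 0.33 in flc-3 and −3.32 ± 0.33 in FRI;FLC. AT4G16880 differed by 1.33 ± 0.32 (adjusted p = 0.0109). Both of these calls were lost with any replicate removed, at adjusted p-values of 0.0552 to 0.114 for AT3G16120 and 0.0723 to 0.129 for AT4G16880.

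In fully expanded leaves the same kind of interaction, added after the values were seen, was called for 18 members. THI2.2 differed between the lines by 3.29, AT2G27420 by 2.85 and AT1G69523 by 1.91, each with the higher leaf 9 difference in flc-3. In experiment 2 alone none of these 3 passed, with 2.36 for THI2.2 (adjusted p = 0.144), 2.46 for AT2G27420 (adjusted p = 0.103) and 1.39 for AT1G69523 (adjusted p = 0.099). In experiment 1 alone they were 4.22 (adjusted p = 0.000632), 3.24 (adjusted p = 0.00769) and 2.43 (adjusted p = 0.000216).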

How the results depend on the processing

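Called members are counted here in both directions, without the shares of all probe sets called. The counts describe the settings and are no result about the members. Where fewer members were tested, a lower count is not by itself a loss of calls. Among probe sets above the median signal, where fewer members were tested, the counts were 25, 17 and 20 for flc-3 apices (day 11 against 4, 9 against 4, 11 against 9), 6 for the mimic line, 38 for FRI;FLC primordia by position, 7 for its difference between lines, 14 for flc-3 leaf 9, 28 for flc-3 leaves past expansion, and 35 and 35 for leaves against primordia in flc-3 and FRI;FLC. With the length trend removed, which leaves the 42 members with a gene, they were 39, 28 and 20 for the apex comparisons, 32 and 34 for primordia by position in flc-3 and FRI;FLC, 14 for primordia by line, 6 for the position difference between lines, 15 and 29 for leaf 9 in flc-3 and FRI;FLC, 26 for flc-3 leaves past expansion and 37 for FRI;FLC leaves against primordia. The mimic line had 7 with only the groups compared. Experiment 1 alone gave 14 for flc-3 leaf 9, and experiment 2 alone gave 2 for the leaf position difference between lines and 15 for leaves by line; AT5G47330 in flc-3 leaf 9, 1.49 in both experiments, was −0.26 in experiment 1. Leaving out each replicate gave 10 to 29 for flc-3 apices of day 11 against 9, 10 to 31 for the mimic line, 15 to 24 for primordia by line, 3 to 7 for the position difference there and 6 to 21 for that in leaves. Of the settings for comparisons, 126 left the count within 1.5 times and 38 did not; of those for named genes, 638 kept the call, 30 lost it and 1 turned. The rule itself chose 39 probe sets with day 6 as a further step, 19 at a fall of 4 log2 units, 172 at 2, 74 after quantile normalization (63 shared with the 68), and 54 to 64 without a replicate (43 to 49 shared).

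Deviations of arrays with the same replicate number correlated at 0.07 in apices, 0.00 in primordia and 0.02 in leaves on average. Arrays with different numbers averaged −0.04 in apices and −0.01 in leaves. Single pairs with the same number ranged from −0.69 to 0.43 in apices, −0.40 to 0.41 in primordia and −0.77 to 0.81 in leaves. Averages near 0 over such a range cannot show that no arrays were paired. With the number as a replicate block the counts were 64, 50 and 38 for the apex comparisons, 22 for the mimic line, 54 and 58 for primordia by position in flc-3 and FRI;FLC, and 25 and 11 for line and its interaction; in leaves they were 28 and 46 by position, 19 for its interaction and 30 by line, then 45 and 42 past expansion and 61 and 62 against primordia. None moved by over 1.5 times, and AT3G52550 in FRI;FLC primordia lost its call (adjusted p = 0.0501).

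The mimic comparison has 2 FRI;FLC arrays, apex age and pool size change together, and signals near 2 log2 units bound a fall only from below.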
